A study of Mus musculus with 3 samples.

Results

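The lamin and LINC complex genes are 10 protein-coding genes of the nuclear envelope, Lmna, Lmnb1, Lmnb2, Lbr, Emd, Syne1, Syne2, Syne3, Sun1 and Sun2, of 21887 protein-coding genes in the annotation. They were chosen by name, and the accessible regions within each gene span and 10 kb on each side (the locus) were taken from 3 lists. The lists come from ATAC-seq, an assay that marks open chromatin by where a transposase can insert. They held 182233, 178055 and 145044 regions at 0 h, 6 h and 72 h, of which the 10 loci held 231, 239 and 243. The loci do not overlap each other.

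The cells were the mouse ECOMG myeloid progenitor line, with the genotype FKBP12F36V_NIPBL. NIPBL loads cohesin on chromatin, and the FKBP12 tag lets the small molecule dTAG direct its breakdown. The groups were 0 h without dTAG, 6 h with dTAG and 72 h with dTAG, with 1 library of 50000 cells each. All 3 groups carried the tag and grew in medium with GM-CSF and β-estradiol. Both later groups had dTAG, so its effect cannot be told apart from that of time or of the single library, and no difference has a replicate check or a test. NIPBL protein was not measured here.

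Lamins are intermediate filament proteins that form a meshwork under the inner nuclear membrane. The lamin B receptor and emerin sit in that membrane and bind the lamina and chromatin. SUN proteins of the inner membrane join nesprins of the outer membrane across the space between them, and this LINC complex ties the nucleus to the cytoskeleton. In neutrophils the nucleus becomes lobed, A-type lamins are scarce, and mice without a working lamin B receptor have neutrophils with poorly lobed nuclei.

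The lists differed as wholes, so values are read beside them. They covered 34.1, 34.3 and 29.9 Mb at 0 h, 6 h and 72 h, read depth was not given in the sources used here, and the lowest listed fold was 3.02, 3.01 and 3.12. A fold is the authors' ratio of a region's summit to the background of the same library, and it describes or ranks regions within that list. Overlapping regions of the 3 lists were joined into stretches, and among 75396 stretches of coding loci with a region in every list, the median folds were 14.4, 15.1 and 15.6. A region is called strong if its −log10 q, the caller's adjusted significance, was at or above the median of its list. That cutoff was a −log10 q of 7.82, 9.25 and 13.0 at the 3 times, so it was stricter at 72 h. With ties at the median, 98492, 92810 and 76050 regions were strong, which is more than 50% of each list. Some regions are also counted at a fixed cutoff. Of 10 myeloid progenitor marker genes, 9 had a region within 1 kb of a gene end at 0 h, 9 at 6 h and 8 at 72 h. Kit, the stem cell factor receptor, had none at 72 h, and Mpo, myeloperoxidase, had none at any time. Such regions were also listed for 3, 2 and 2 of 3 non-blood genes and for 3, 2 and 2 of 4 lymphoid genes, and for 1 of 3 erythroid genes at each time. In bulk libraries, a site open in fewer cells and a site less open in each cell cannot be told apart.

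The lamin and LINC loci held slightly more listed regions after 72 h of dTAG, in a list that was shorter as a whole. They held 243 regions at 72 h against 231 at 0 h, a ratio of 1.05. Over all coding loci the ratio was 0.854, and its direction depended on which regions were counted. It was 1.12 for regions with a fold of at least 10, 1.04 for those with a −log10 q of at least 10, and 1.06 with each list cut to the length of the shortest. The 10 loci then held 136, 149 and 243 regions at 72 h against 108, 129 and 196 at 0 h. With all listed regions, the quotient of the ratios was 1.23, with a counting interval of 1.02 to 1.48, and it was 1.12, 1.11 and 1.17 under these 3 settings. Without Syne1 the other 9 loci held 176 regions at 72 h against 181 at 0 h, and the quotient was 1.14 (0.920 to 1.41). At 6 h the 10 loci held 239 regions against 231 at 0 h, and the quotient was 1.06 (0.880 to 1.27). The covered length was 53.2, 54.2 and 55.6 kb at 0 h, 6 h and 72 h. By this measure 6 loci had more at 6 h than at 0 h, against a background of 49.7% of coding loci, and 5 had more at 72 h than at 0 h (Lmnb1, Lbr, Syne1, Sun1 and Sun2), against 30.6%. All 10 genes had a region within 1 kb of a gene end in every list, as did 64.2%, 63.8% and 59.1% of all coding genes at 0 h, 6 h and 72 h.

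The members did not move as 1 block. More regions were listed at 72 h than at 0 h in 4 loci, Lmnb1, Emd, Syne1 and Sun1, where 27.8% of coding loci with at least 5 regions held more. Fewer were listed in 5 loci, Lmna, Lmnb2, Lbr, Syne2 and Syne3, where 60.7% of coding loci held fewer, and Sun2 held 16 at both times. The median change from 0 h to 72 h was −1 region per locus for the 10 members and −1 for coding loci with at least 5 regions. At 6 h, 5 loci held more regions than at 0 h, against a background of 37.6%, and 3 held fewer, against 45.0%. The higher total at 72 h thus came from a few loci: the rise of Syne1 exceeded that of Lmnb1, Emd and Sun1 together.

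**Figure D1:**
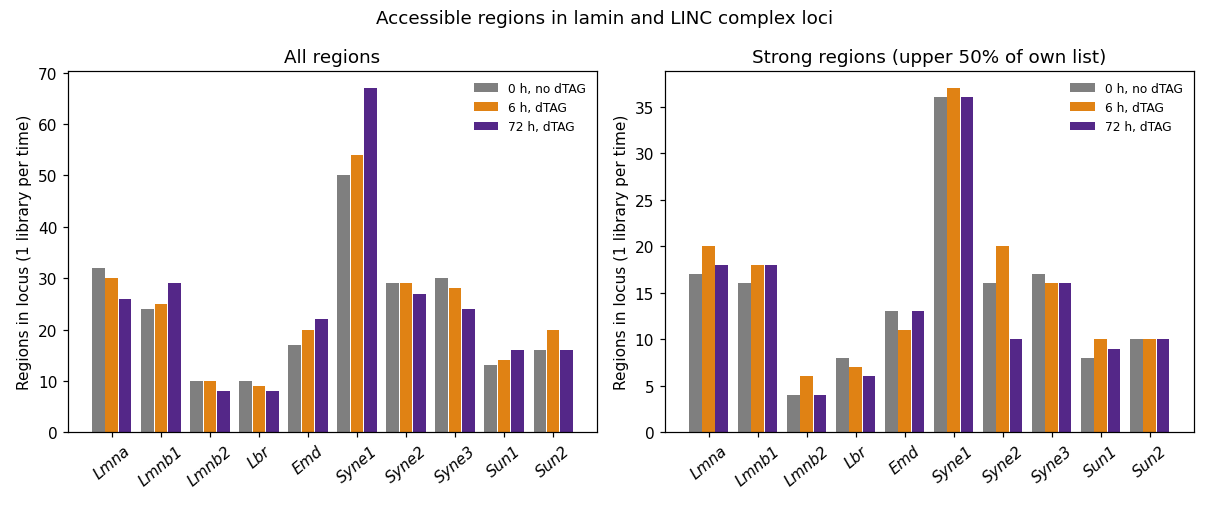
Number of accessible regions in each locus (left) and of strong regions, those at or above the median −log10 q of their own list (right), at 0 h, 6 h and 72 h, with 1 library per time and no error. Syne1 held 50, 54 and 67 regions, while its strong regions numbered 36, 37 and 36.

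Most accessible stretches of these loci were found at every time. The 10 loci held 308 stretches. All 3 lists held a region in 163 of them, or 52.9% (exact 95% interval 47.2 to 58.6), against 43.7% over all coding loci. Stretches listed at 72 h alone made up 14.6% (10.9 to 19.1) in the 10 loci and 10.6% over coding loci. Those listed at 0 h and 6 h but not at 72 h made up 6.49% (4.01 to 9.85) in the 10 loci and 13.7% over coding loci. The 45 stretches listed at 72 h alone were mostly low, with a median fold of 4.68, and 4 of them held a strong region. The 163 shared stretches reached a median of 23.4 for the highest of their 3 folds, and 151 held a strong region. These intervals cover counting error only.

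**Figure D2:**
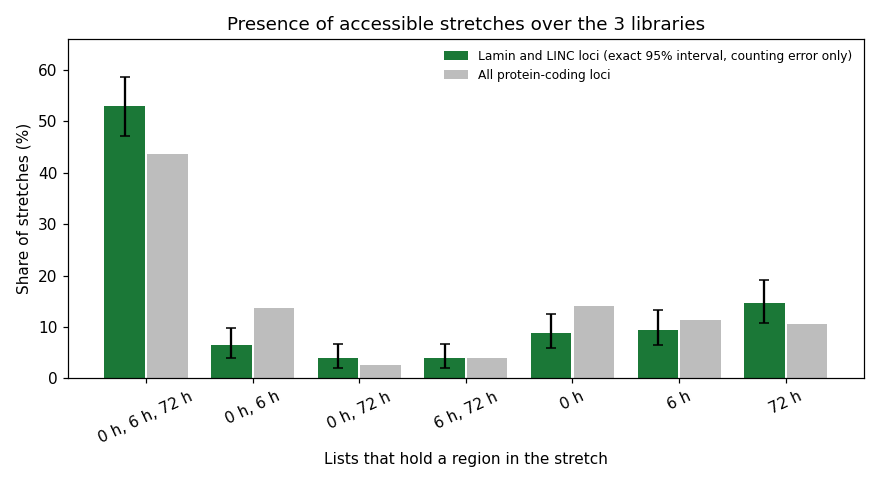
Share of stretches (%) by the lists that hold a region in them, for 308 stretches of the lamin and LINC loci (green, bars with exact 95% intervals that cover counting error only) and for all protein-coding loci (grey). Stretches found at all 3 times made up 52.9% in the 10 loci against 43.7% over coding loci, and those found at 0 h and 6 h only made up 6.49% against 13.7%.

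Counting any overlap as shared, few strong regions of the 10 loci were lost or gained. Of 145 strong regions at 0 h, 8 had no region at 72 h, or 5.52% (2.41 to 10.6), against 13.3% of strong regions in all coding loci. Of 140 strong regions at 72 h, 6 had none at 0 h, or 4.29% (1.59 to 9.09), against 6.86%. Where only a reciprocal overlap of at least 50% counted as shared, 29 of 145 were lost and 34 of 140 gained, or 20% and 24.3%, against 27.1% and 24.4% in all coding loci. At 6 h, 2 of the 145 had no region, or 1.38% (0.167 to 4.89), with a background of 2.2%. Of 155 strong regions at 6 h, 3 had none at 0 h, or 1.94% (0.401 to 5.55), with a background of 1.6%. The 8 lost at 72 h lay in 6 loci (Lmna, Emd, Syne1, Syne2, Syne3 and Sun1), where 48.3% of coding loci lost at least 1. The 6 gained lay in 2 loci, Lmna and Syne1, against 24.9%. At 6 h, 2 loci (Lmnb1 and Sun2) lost a strong region, against 12.5%, and 3 (Lmnb1, Emd and Syne1) gained one, against 9.08%. These per-locus backgrounds were not matched for the number of regions in a locus. Its median at 0 h was 20.5 for the 10 members and 7 for all coding loci. The strong share of 0 h regions was itself high in these loci, at 145 of 231 against 102536 of 181410 summed over coding loci, and its part in these shares was not tested. Of all 231 regions at 0 h, 181 were overlapped at 72 h, or 78.4% (72.5 to 83.5), against 64.4% summed over coding loci, where 36.7% had none when each region was counted once. By role, 53 of 66 were overlapped in the lamin loci, 21 of 27 in those of Lbr and Emd, 84 of 109 in the nesprin loci and 23 of 29 in the SUN loci.

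Lmna encodes the A-type lamins A and C (gene span chromosome 3, 88481148 to 88509932, mm10, minus strand). Its locus was densely covered, with 32, 30 and 26 regions at 0 h, 6 h and 72 h, or 6.56, 6.15 and 5.33 per 10 kb, where the median coding locus had 1.32, 1.31 and 1.09. The same 3 places led the locus at every time. The highest lay at the upper end of the gene span (88509663 to 88510463), which is the 5′ end of this minus-strand gene, with folds of 219, 279 and 326. RefSeq start windows were held for 2 further starts inside the span, called inner and outer here. Next came the stretch at the inner of them, 88492399 to 88493416, with folds of 132, 160 and 240. The stretch at the outer of them, 88502608 to 88503782, had 126, 147 and 154. The order of these 3 was thus the same in each list. The last of them was listed in 2, 3 and 1 pieces, so part of the drop in number was a change in pieces. Counted as stretches, the locus held 26 at 72 h and 30 at 0 h.

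Within Lmna, 1 strong region of 0 h was absent at 72 h and 2 strong regions of 72 h were absent at 0 h. The absent one, inside the span at 88488386 to 88488628, had a fold of 23.4 at 0 h, rank 7 in the locus, and overlapped a weak region of fold 6.78 at 6 h. The 2 new strong regions lay inside the span (88490785 to 88491086, fold 10.1) and beyond its upper end (88513875 to 88514049, fold 12.5, with a weak 6 h region of 3.77 in the same stretch). The stretches beside both new regions also stood higher in the locus at 72 h. That at 88491126 to 88491504 had folds of 20.4, 21.9 and 66.4, with ranks 11, 10 and 5. That at 88513083 to 88513366 had folds of 4.54, 6.03 and 44.5, with ranks 23, 22 and 7. These 2 stretches were chosen after their values were seen.

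Lmnb1 encodes lamin B1 (chromosome 18, 56707813 to 56753424). Its locus held 24, 25 and 29 regions over the 3 times, with 16, 18 and 18 strong. At 0 h and 6 h the highest region lay at the lower end of the gene span, with folds of 93.0 and 107. At 72 h that place had a fold of 65.6 and rank 4. The highest region of the 72 h list then lay inside the gene, spanning 56733792 to 56734399 with a fold of 139, where it had 40.1 at 0 h and 50.5 at 6 h and rank 3 at both. Among the 10 members the highest region lay at another place at 72 h than at 0 h for Lmnb1 and Syne3, where this held for 23.0% of coding loci, so 2 of 10 is near the background.

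The new leading region of Lmnb1 stood in a group of stretches 25 to 31 kb from the lower end of the span, a window chosen after its values were seen. The window held 6, 8 and 8 regions, which covered 984, 1377 and 2572 bp. Its neighbour at 56732955 to 56733419 had folds of 26.5, 38.4 and 77.3, and ranked 2 in the locus at 72 h. The stretches at 56735741 to 56736230 and 56737279 to 56737711 had 6.80 and 8.32 at 0 h, 4.52 and 11.3 at 6 h, and 48.4 and 43.7 at 72 h. All 6 stretches listed at 0 h in the window were also listed at 72 h. A further pair of weak stretches, 56736432 to 56736533 and 56736966 to 56737046 with folds of 6.25 and 4.68, was listed at 72 h alone. The locus had 0 strong regions lost and 0 gained at 72 h. At 6 h it had 1 of each, both near the cutoff: a region of fold 7.56 at 56756661 to 56756743 was lost and a region of fold 7.54 at 56734272 to 56734377, within the stretch that led at 72 h, was gained.

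**Figure D3:**
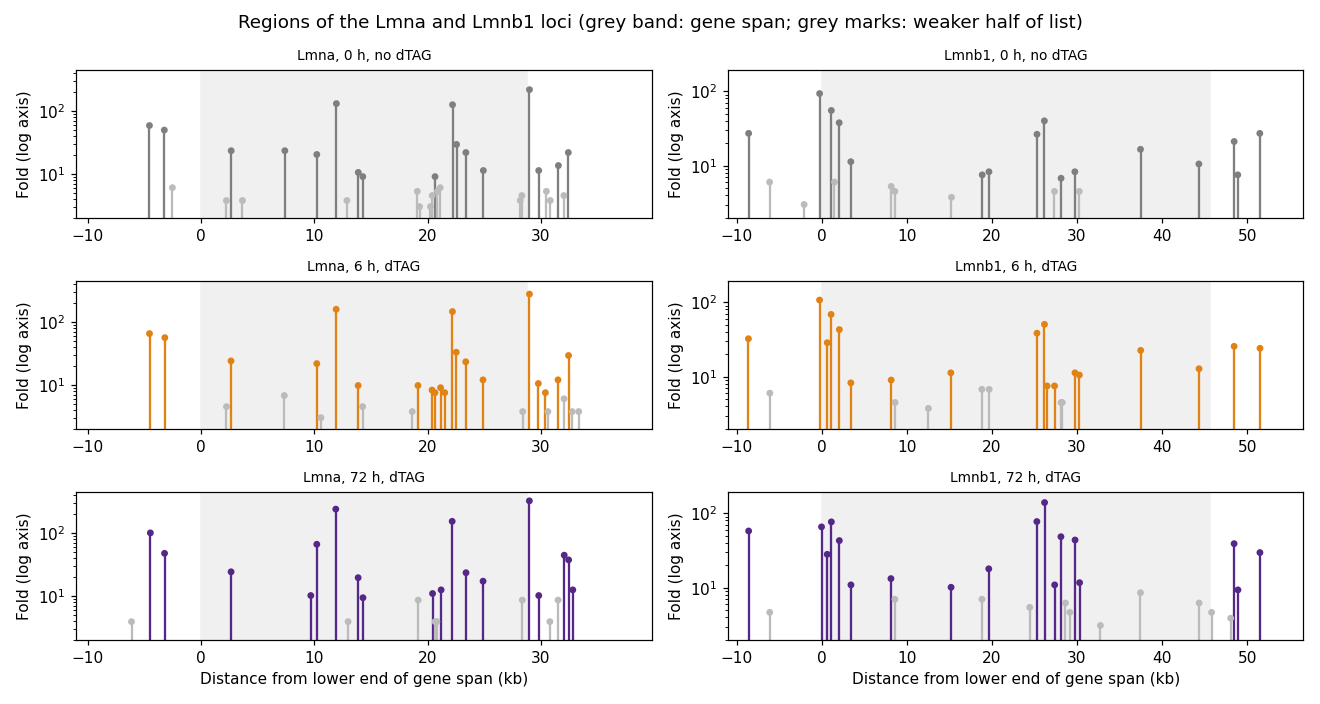
Fold of each region (log axis) at its summit against the distance from the lower end of the gene span (kb), for Lmna (left) and Lmnb1 (right) at 0 h, 6 h and 72 h, with strong regions in colour, weaker ones in grey and the gene span shaded. In Lmna the same place leads in every list, while in Lmnb1 the highest region lies at the span's lower end at 0 h (93.0) and inside the gene at 72 h (139).

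Lmnb2 encodes lamin B2 (chromosome 10, 80901363 to 80918245, minus strand). Its locus held 10, 10 and 8 regions. The highest stretch, 80900267 to 80901164 with folds of 147, 203 and 237, lay at an end of the neighbour Timm13, a mitochondrial import chaperone. It also lay over or within 1 kb of an end of Tmprss9, and cannot be given to Lmnb2 alone. At the outer start of Lmnb2 the folds were 43.8, 45.2 and 32.8. A stretch 3.63 kb upstream of it, at 80921870 to 80922276, ranked 2 in the locus at 0 h and 6 h with folds of 49.1 and 55.0. At 72 h it was the lowest of the 8 regions, with a fold of 3.90. A stretch inside the gene, 80914186 to 80914699, had folds of 28.7, 43.7 and 62.5 and ranked 2 at 72 h. Both stretches were chosen after their values were seen.

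Lbr encodes the lamin B receptor, which binds B-type lamins and heterochromatin protein 1 and also acts as a sterol reductase (chromosome 1, 181815315 to 181842401, minus strand). Its locus held 10, 9 and 8 regions, of which 8, 7 and 6 were strong, and no strong region was lost or gained at either time. The fall in strong regions depended on the cutoff of each list. At fixed cutoffs the locus held 6, 7 and 7 regions whose −log10 q reached 10, and 5, 6 and 6 whose fold reached 10. The region over its start dominated every list, with folds of 110, 131 and 172, while the next highest in the locus had 23.4, 27.1 and 33.6. All 8 stretches with a region at 72 h also had one at 0 h and 6 h.

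Emd encodes emerin, a LEM-domain protein of the inner membrane (X chromosome, 74254674 to 74261563, plus strand). Its locus held 17, 20 and 22 regions, or 6.32, 7.44 and 8.18 per 10 kb, although covered length was 6947, 7176 and 6123 bp, so more and shorter regions were listed at 72 h. The locus also takes in parts of Flna, filamin A, and of Rpl10, a ribosomal protein gene. Of its 22 stretches, 14 lay before the Emd span, 5 inside it and 3 after it. Counted as stretches, the locus held 17 at 72 h and 15 at 0 h, so part of the rise was a change in pieces. At 72 h, 4 stretches were listed in more pieces than at 0 h, all in Flna or over Rpl10, and 1 in fewer. The stretch over Rpl10 was a region of 2440 bp at 0 h and regions of 1252 and 372 bp at 72 h. The number and density of regions therefore cannot be given to Emd alone. The start region had folds of 143, 197 and 207 and led the locus at all times. A stretch 0.718 kb upstream of the start, at 74253795 to 74253969, had folds of 9.83, 20.3 and 59.3, with ranks 9, 7 and 6, and was chosen after its values were seen. The 1 strong region lost at 72 h, 74254327 to 74254387 with a fold of 6.80, was a short piece beside the start region. The 1 gained at 6 h, 74245178 to 74245387 with a fold of 7.54, lay inside Flna.

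Syne1 encodes nesprin-1, a giant spectrin-repeat protein whose KASH domain binds SUN proteins (chromosome 10, 5020192 to 5550692, minus strand). It had the largest rise in number among the members, with 50, 54 and 67 regions at 0 h, 6 h and 72 h. Its strong regions numbered 36, 37 and 36 by the cutoff of each list. At fixed cutoffs it held 34, 36 and 37 regions whose −log10 q reached 10, and 25, 28 and 35 whose fold reached 10, so the flat number of strong regions depended on the cutoff. Per 10 kb the locus held 0.908, 0.981 and 1.22 regions, below the median coding locus at 0 h and 6 h and above it at 72 h. Counted as stretches it held 66 at 72 h and 49 at 0 h. Of its 77 stretches, 41 were listed at all times and 17 at 72 h alone. Its 4 strong regions gained at 72 h lay inside the span at 5288311 to 5288633 (fold 24.2), 5159810 to 5159979 (15.6), 5488176 to 5488365 (14.1) and 5043069 to 5043207 (10.9). The second of these overlapped a weak region of fold 5.27 at 6 h. The 1 strong region lost at 72 h, 5450789 to 5450914, had a fold of 7.56, and the 1 gained at 6 h, 5169653 to 5169784, had a fold of 11.3.

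The region at 5488176 to 5488365 lay on the middle of 3 annotated starts of Syne1, so the windows of all 3 are shown, from 250 bases before to 50 after each start, beside that of Lbr, whose start was covered in every list. The sequences are RefSeq's for GRCm38.p6, the assembly of mm10, on the minus strand. Capitals mark bases inside a region listed at 72 h.
Syne1 outer start, chr10:5550643-5550942: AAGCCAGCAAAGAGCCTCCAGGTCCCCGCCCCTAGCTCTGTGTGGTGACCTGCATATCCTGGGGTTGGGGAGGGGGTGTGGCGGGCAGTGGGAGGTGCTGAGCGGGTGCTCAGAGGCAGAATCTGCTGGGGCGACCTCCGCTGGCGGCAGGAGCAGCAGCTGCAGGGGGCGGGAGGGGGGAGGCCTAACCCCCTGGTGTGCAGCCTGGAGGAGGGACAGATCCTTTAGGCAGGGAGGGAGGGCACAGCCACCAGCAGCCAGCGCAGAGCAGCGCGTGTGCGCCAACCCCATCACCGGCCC
Syne1 middle start, chr10:5488265-5488564: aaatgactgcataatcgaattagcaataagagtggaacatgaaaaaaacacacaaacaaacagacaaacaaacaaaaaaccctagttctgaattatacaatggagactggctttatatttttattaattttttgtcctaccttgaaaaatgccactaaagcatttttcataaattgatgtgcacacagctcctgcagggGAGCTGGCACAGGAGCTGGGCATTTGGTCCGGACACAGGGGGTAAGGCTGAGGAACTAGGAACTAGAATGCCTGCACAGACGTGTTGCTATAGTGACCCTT
Syne1 inner start, chr10:5069014-5069313: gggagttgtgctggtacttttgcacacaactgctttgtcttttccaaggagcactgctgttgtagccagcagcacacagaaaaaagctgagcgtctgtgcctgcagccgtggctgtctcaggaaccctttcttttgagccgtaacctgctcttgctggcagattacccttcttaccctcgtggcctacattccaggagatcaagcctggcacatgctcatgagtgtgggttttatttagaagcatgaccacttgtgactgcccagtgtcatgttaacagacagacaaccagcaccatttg
Lbr start, chr1:181842352-181842651: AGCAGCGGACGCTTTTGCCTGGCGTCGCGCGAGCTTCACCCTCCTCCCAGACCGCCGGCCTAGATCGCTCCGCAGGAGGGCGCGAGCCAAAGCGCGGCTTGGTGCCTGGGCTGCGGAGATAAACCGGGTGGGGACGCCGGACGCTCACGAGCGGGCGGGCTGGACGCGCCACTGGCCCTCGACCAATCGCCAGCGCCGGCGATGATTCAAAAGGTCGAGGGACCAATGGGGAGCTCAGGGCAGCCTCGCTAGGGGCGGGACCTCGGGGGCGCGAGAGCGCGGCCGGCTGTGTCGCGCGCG
The 72 h region covered the last 101 bases of the middle window, start site included. The outer window held 12 CpG pairs at a GC content of 69.0%, and a region covered it at each time, with folds of 44.6, 85.1 and 43.7. The middle window held 3 CpG pairs at 40.3% GC and had a region at 72 h alone. The inner window held 4 CpG pairs at 50.3% GC and had none at any time. The Lbr window held 42 CpG pairs at 72.0% GC. Of 9714 start windows of coding genes without a region at 0 h, 1.69% had one at 72 h. Those with a region at 72 h alone numbered 88 of 21263, and their median was 3 CpG pairs, against 22 for windows with a region in all lists.

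Other parts of Syne1 changed their standing within the locus. The highest region at 0 h and 72 h lay inside the gene, at 5326664 to 5327154, with folds of 93.7, 98.7 and 112. At 6 h a region near the outer start, 5548609 to 5549072, stood slightly higher, at 101, and a highest region at another place than at 0 h was found for 11.2% of coding loci. A stretch 4.33 kb upstream of the outer start, 5555018 to 5555226, had folds of 80.9, 53.5 and 29.7, with ranks 2, 4 and 14. Stretches far inside the gene stood higher at 72 h. That at 5256737 to 5257034 had 12.1, 19.6 and 59.3 and ranks 21, 16 and 3, and that at 5500034 to 5500317 had 12.1, 20.3 and 58.5 and ranks 21, 15 and 4. A further one, at 5044543 to 5045015, had 9.07, 24.9 and 51.5 and ranks 29, 14 and 5. These 4 stretches were chosen after their values were seen.

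**Figure D4:**
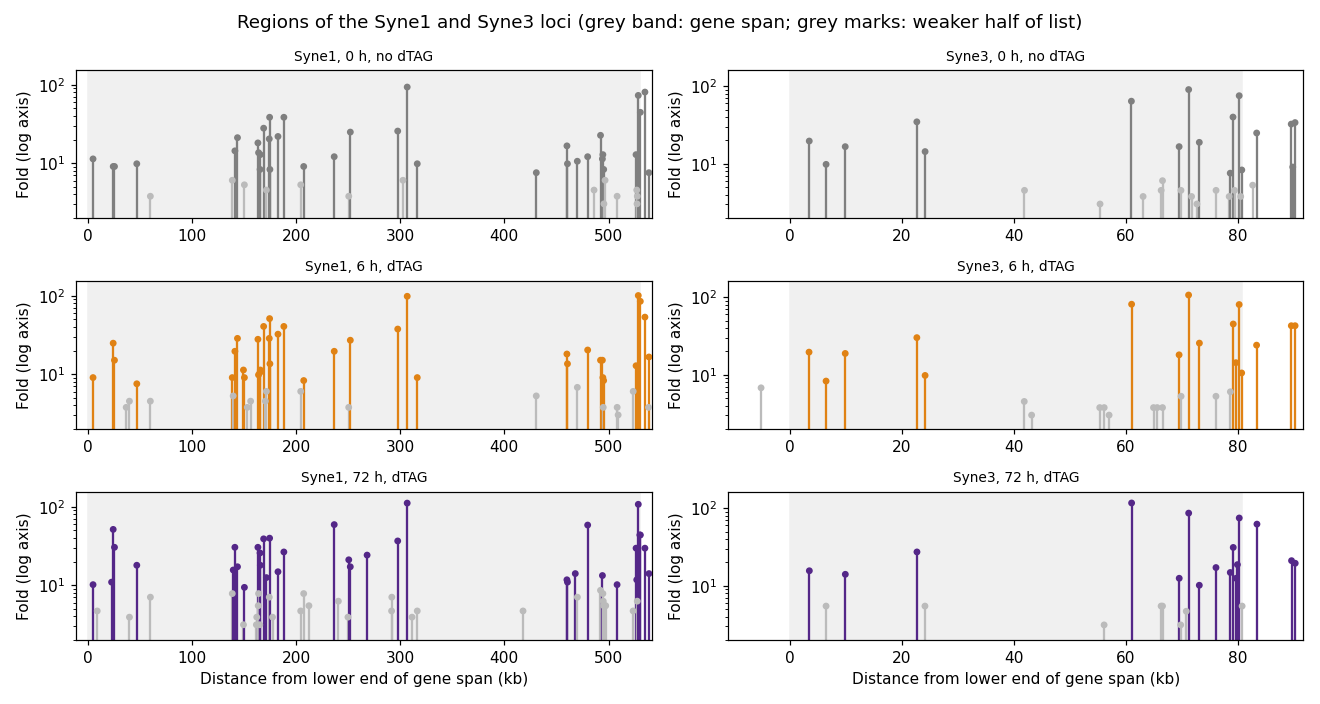
Fold of each region (log axis) at its summit against the distance from the lower end of the gene span (kb), for Syne1 (left) and Syne3 (right) at 0 h, 6 h and 72 h, with strong regions in colour, weaker ones in grey and the gene span shaded. Syne1 held 67 regions at 72 h against 50 at 0 h, and in Syne3 the highest region at 72 h (117) lies at another place than at 0 h (90.7).

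Syne2 encodes nesprin-2, the related giant nesprin (chromosome 12, 75818318 to 76110928, plus strand). Unlike Syne1, its locus held 29, 29 and 27 regions, of which 16, 20 and 10 were strong, and its covered length was 5072, 5107 and 4168 bp. At fixed cutoffs it held 13, 17 and 12 regions whose −log10 q reached 10, and 13, 13 and 10 whose fold reached 10. The size of the drop in strong regions thus depended on the cutoff. The predicted gene Gm40447 overlaps the start of Syne2, so regions there cannot be given to Syne2 alone. The start region led at each time, with folds of 80.9, 103 and 97.6. Of its 41 stretches, 8 were listed at 0 h and 6 h and not at 72 h, out of 20 such stretches over all members. It lost 3 strong regions at 72 h and gained 0. The highest of them, 75927672 to 75927938, had a fold of 25.7 at 0 h and 26.4 in its stretch at 6 h. The next, 76005077 to 76005238, had 15.1 at 0 h and 6 h, and the third, 75901890 to 75901978, had 7.56 at 0 h. A stretch 1.05 kb upstream of the start, 75817041 to 75817264, was still listed at 72 h, with a fold of 3.90 after 17.4 at 0 h and 19.6 at 6 h. It was chosen after its values were seen.

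Syne3 encodes nesprin-3, which binds plectin and through it intermediate filaments (chromosome 12, 104929933 to 105010587, minus strand). Its locus held 30, 28 and 24 regions and 17, 16 and 16 strong ones. Its 1 start window in the RefSeq table is at 104998677, inside the span, and no region lay on it in any list, with the nearest 605, 649 and 649 bp from the start site. The 5′ end of the span was open at each time: a stretch over it, 105010497 to 105010705, had folds of 8.32, 10.5 and 5.46, and the stretch beside it, 105009435 to 105010268, had 75.6, 80.6 and 74.9. The stretch at 105000803 to 105001311, 2.13 kb upstream of that start, led the locus at 0 h and 6 h with folds of 90.7 and 107, and had 86.7 at 72 h. The leading region at 72 h was 104990496 to 104991070, inside the gene, with a fold of 117, where it had 64.3 at 0 h and 81.4 at 6 h. Of its 36 stretches, 7 were listed at 0 h alone, all of them weak, and 1 at 72 h alone. The 1 strong region lost at 72 h, 105019614 to 105019769, had a fold of 9.07. It was a piece of the stretch at 105019320 to 105019769, which was still listed at 72 h, with folds of 32.5, 43.0 and 21.1.

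Sun1 encodes an inner membrane protein whose SUN domain binds nesprins (chromosome 5, 139200564 to 139249839, plus strand). Its locus held 13, 14 and 16 regions, with 8, 10 and 9 strong. The highest stretch, 139252043 to 139253187 with folds of 131, 157 and 179, lay at an end of the neighbour Get4, which takes part in inserting tail-anchored proteins. The stretch on the outer start of Sun1 itself ranked 2 in each list, with folds of 124, 147 and 151. The 1 strong region lost at 72 h, 139209472 to 139209577, had a fold of 6.80, the value of the median region of its list. Of the 5 stretches listed at 72 h alone, 0 were strong, and the nearest to the inner start lay 176 bp from it.

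Sun2 encodes the second SUN protein found in most tissues (chromosome 15, 79724068 to 79742536, minus strand). Its locus held 16, 20 and 16 regions, with 10 strong ones at each time. The start region led every list, with folds of 120, 167 and 208, and the stretch next to it, 79741141 to 79741801, followed with 68.8, 100.2 and 143. A stretch 1568 bp from the start, 79740713 to 79740968, had folds of 29.5, 38.4 and 95.2, with ranks 5, 5 and 3, and was chosen after its values were seen. The locus lost 1 strong region at 6 h, 79738969 to 79739102 with a fold of 8.32, and at 72 h a weak region of fold 5.46 was listed at that place. It lost and gained 0 strong regions at 72 h.

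The annotated start windows without a region in any list held few CpG pairs, but so did some windows with a region. RefSeq start windows matched 9 of the 10 members, with 14 windows in all. A region lay on 9 of them in all 3 lists, on the middle start of Syne1 at 72 h alone, and on 4 in no list: the inner starts of Lmnb2, Syne1 and Sun1 and the start of Syne3. These 4 held 6, 4, 4 and 5 CpG pairs. Over coding genes, 50.5% of 21263 windows had a region in all 3 lists and 43.8% had none in any list. Windows with no region in any list held a median of 4 CpG pairs and those with a region in all lists 22. The Lmna windows did not follow this, with 7 CpG pairs at the inner and 1 at the outer start and a region on both in every list. GC content did not separate the windows either. It was 58.7% at the inner start of Lmnb2, without a region, and 53.7% at that of Emd, with a region in every list. Of windows with a region at 0 h, 6.55% had none at 72 h over coding genes, and 0 of the 9 here. At 6 h, 0 of the 5 windows without a region at 0 h had one, against 3.15% over coding genes, and 0 of the 9 with a region had none, against 2.54%.

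**Figure D5:**
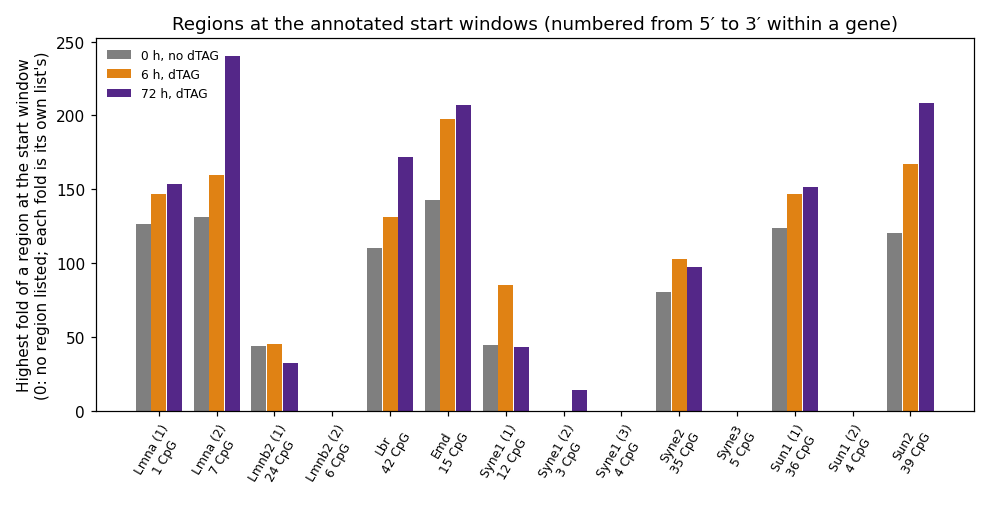
Highest fold of a region on each of 14 annotated start windows at 0 h, 6 h and 72 h, with the window's number of CpG pairs under its name; 0 means that no region was listed, and each fold belongs to its own list. The middle start of Syne1 has a region at 72 h alone (14.1), and 4 windows with 4 to 6 CpG pairs have none.

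Short motifs were searched on both strands of the start windows, as a description only. The GC box GGGCGG was found in 8 of the 14 windows and in 46.2% of 21263 windows of coding genes. The CCAAT box was found in 6 of 14, against 38.2%. The AP-1-like pattern TGANTCA was found in 2 of 14, those of Lbr and of the outer start of Lmna, against 6.99%. This pattern allows any middle base and is looser than the AP-1 site, and the match in the Lbr window read TGATTCA. The C/EBP-like motif TTGCNNAA was in none of the 14, against 10.2%, and AGGAAG, an ETS-type motif, in 2, against 34.4%. The TATA-like sequence TATAAA was found in 2, the middle start of Syne1 and the inner start of Sun1, against 12.6%. In the Syne1 window it lay on the strand opposite to the gene's and outside the 72 h region, so it is not called a TATA box. No motif of the set contains another.

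Other nuclear envelope genes were taken from 5 lists of 32 genes in all: lamin processing enzymes, LEM-domain genes with BAF, other LINC genes, partners of the LINC complex, and genes related to Lbr. Together their loci held 391, 366 and 368 regions at 0 h, 6 h and 72 h. Where genes lie side by side their loci share regions, as for Tor1a and Tor1b. Set against 0 h, the 72 h list had more regions for 12 of the 32, fewer for 16 and as many for 4. Of coding loci with at least 5 regions, 27.8% held more at 72 h and 60.7% held fewer. Not all of the 32 loci reached 5 regions, so this background is not an exact match. The largest rises were at Plec, plectin, with 36 regions at 72 h and 31 at 0 h, and Tmem43, an inner membrane protein that binds emerin, with 15 and 10. The largest falls were at Kash5, a meiotic KASH protein, with 10 at 72 h and 18 at 0 h, and Fhod1, a formin that binds nesprin-2, with 7 and 15. Enzymes that process lamins, among them Zmpste24, held 38 regions at 72 h and 43 at 0 h, and 5 of 5 kept a region at a gene end. Of all coding genes, 64.2% had such a region at 0 h and 59.1% at 72 h. The other LINC genes, most of them known from germ cells or epithelia, held 51 at 72 h and 66 at 0 h. Near these 32 genes, with each region counted once, 11 of 216 strong regions were lost at 72 h, or 5.09% (2.57 to 8.93), and 8 of 210 gained, or 3.81% (1.66 to 7.37). The backgrounds were the same 13.3% and 6.86% of strong regions in coding loci.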

How the data were processed

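ATAC-seq was done on 3 libraries of NIPBL-degron ECOMG cells, 1 per group, grouped by the labels' treatment. Per the submitters' processing notes, the tools named were MACS2 2.2.7, with build mm10, and HOMER, limma, edgeR, ChIPseeker, bedtools 2.30.0, BWA 0.7.17, MultiQC 1.10.1 and FastQC 0.11.8, none with options. How fragments were chosen, duplicates handled and cut sites shifted was not given in the sources used here, and neither was read depth. The authors deposited 1 peak list per library, each with a fold (the ratio of summit to background), a −log10 p-value, a −log10 q-value and a score that is about 10 times the −log10 q. The deposited score was not used.

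From these lists, regions on chromosomes 1 to 19, X and Y were assigned to gene spans of RefSeq GRCm38.p6 plus 10 kb, with Python 3.11.15, pandas 2.3.3 and scipy 1.17.1. All 10 member symbols, 32 of 32 other envelope genes and 20 of 20 markers matched. Regions overlapped when they shared at least 1 bp. The annotation held no exons, so positions are given as inside or outside gene spans. Intervals are exact 95% binomial ones. Those of quotients come from the split of both counts, treat the lists as independent although many regions recur, and like all intervals cover counting error only. The backgrounds use coding loci with at least 5 regions in either list of the pair, or each region of coding loci once. They are not matched for the number of regions in a locus.

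With 1 library per group no test was run. The overlap, counting and merging steps were checked on simulated lists. Members and lists were chosen with earlier results of these data known. All 10 members are named, with their highest region, their start region, and strong regions lost or gained. Other stretches, whether or not marked so, are to be read as chosen after their values were seen. No genes of like pattern are named, since 3 libraries give 3 values a gene. Alternatives changed the flank, the strength cutoff, the overlap rule, list length, merging and the measure.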

Additional observations from a re-analysis of the deposited data

How the results depend on the processing

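No replicate could be left out and no paired analysis across replicates was possible, with 1 library per group. For the number of regions in the 10 loci set against all coding loci, the 9 alternatives gave quotients of 1.11 to 1.28 at 72 h and of 1.02 to 1.08 at 6 h, all within the counting intervals. The lowest at 72 h, 1.11, came with a −log10 q of at least 10. The ratio over all coding loci itself turned direction at 72 h under 3 settings, as given with the counts. Shares of strong regions lost or gained depended mainly on the overlap rule. With a reciprocal overlap of at least 50%, lost shares were 6.90% at 6 h and 20% at 72 h, and gained shares 10.3% and 24.3%, since a region listed in pieces or at another length then counts as absent. By this rule, all coding loci had lost shares of 9.59% and 27.1% and gained shares of 8.87% and 24.4%. In the 10 loci the lost share at 6 h was 0 when a region within 500 bp counted as shared, when strong meant the upper 25% of a list, and when it meant a fold of at least 10. With the upper 25% the gained share was 0 at 6 h and 1.32% at 72 h. Other settings gave 2.47% to 7.06% lost and 2.86% to 5.37% gained at 72 h. With a lowest listed fold near 3, a locus without a region can hold signal below that minimum.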

Other observations

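Stretches over or within 1 kb of an end of a neighbouring gene made up 15 of the 308 in the lamin and LINC loci. Further stretches lay inside neighbouring genes away from their ends, as in Flna beside Emd, Get4 beside Sun1, Gtpbp1 beside Sun2 and Dnah14 beside Lbr. These cannot be given to the member alone. Upstream of Emd, the stretch at an end of Flna, filamin A, at 74249513 to 74250060 on the X chromosome had folds of 37.0, 33.2 and 48.4 over the 3 times. It was listed as 1 region at 0 h, 3 at 6 h and 2 at 72 h. On the other side of Emd, the stretch over Rpl10, 74269766 to 74272216, had 102, 122 and 123, in 1, 1 and 2 regions. The stretch at the end of Get4 beside Sun1 was likewise 1 region at 0 h and 2 at both later times. The stretch on the outer start of Syne1, 5549932 to 5551041, was 1 region at 0 h and at 6 h and 2 regions at 72 h, each with a fold of 43.7, while another of Syne1, 5194667 to 5195210, was 2 regions at 0 h and 1 at 72 h. Over the 10 loci, 9 stretches were listed in more pieces at 72 h than at 0 h and 8 in fewer, and the number of stretches was 232 at 72 h and 222 at 0 h.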
